A study of Rattus norvegicus with 10 samples.

Results

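Solitary m6A sites are places on the rat genome where hypertrophic and quiescent heart muscle cells each had 1 called peak, at overlapping positions, with no other peak nearby. A site was taken when a peak of the hypertrophic list had no other peak of that list within 50000 bp, edge to edge, and overlapped exactly 1 peak of the quiescent list that itself had no other quiescent peak within 50000 bp. The rule found 2142 sites among 65539 hypertrophic and 68440 quiescent peaks, which is 4.41% of the 48600 hypertrophic peaks that overlapped a quiescent peak. The remaining 46458 overlapping hypertrophic peaks serve as the comparison below. The sites were chosen by peak positions and overlap in both lists, so isolation and sharing describe the choice and are not findings.

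The study isolated primary cardiomyocytes from newborn rats aged 1 to 3 days and immunoprecipitated RNA with an antibody against N6-methyladenosine (m6A), followed by sequencing (MeRIP-seq). Hypertrophic cells were kept in M199 medium with 2% bovine serum, and quiescent cells, called normal in the deposited lists, in M199 without serum. The 10 libraries form 5 groups of 2: input RNA of hypertrophic cells, input RNA of quiescent cells, m6A immunoprecipitates of each, and immunoprecipitates with normal IgG from hypertrophic cells. The authors deposited 1 peak list per condition, both called against that IgG control. With 1 list per condition there is no spread between samples, so no comparison below has a p-value. Intervals of shares are Wilson 95% intervals, which cover counting error only and take sites as independent. The peak lists carry no gene names, so sites are given by their rn4 position and the cardiomyocyte label was not checked against marker genes. Read totals are unknown, and the depth behind a site is known only through its summit height.

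m6A is a methyl mark that the METTL3-METTL14 complex writes on adenosines of messenger RNA, mostly in the sequence context known as DRACH, and that demethylases such as FTO and ALKBH5 can remove. Reader proteins of the YTH family bind it and influence splicing, translation and decay of the transcript. Marks are often clustered around stop codons and in long internal exons, so that a methylated transcript commonly gives several neighbouring peaks. In the heart, m6A has been studied in the growth response of cardiomyocytes.

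Isolation was uncommon in both lists, and the 2142 sites passed every step of the rule. Of the hypertrophic peaks, 4902 (7.48%) had no neighbour within 50000 bp. Of the quiescent peaks, 5118 (7.48%) had none. Among the 4902 isolated hypertrophic peaks, 3613 overlapped a quiescent peak and 1289 did not. Overlap with more than 1 quiescent peak removed 37, and a quiescent neighbour of the partner removed 1434. Of the 1690 adjacent quiescent neighbours behind those 1434 losses, 1686 overlapped no hypertrophic peak, which the isolation of the hypertrophic peak largely fixes. Started from the quiescent list, the rule gave the same number, 2142 sites.

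The sites lay far from any other peak. The nearest other peak of either list was at a median of 80296 bp, with quartiles of 61138 and 118456 bp. More than 100000 bp separated 736 sites (34.4%) from every other peak, more than 200000 bp separated 165 sites, and more than 500000 bp separated 8 sites. The farthest, on chromosome 4 from 99199079 to 99199226, had 702083 bp to the nearest peak. It was a narrow, weak site of 148 bp, with summit heights of 14 in hypertrophic and 11 in quiescent cells and summits 2 bp apart. On chromosome X from 77087504 to 77087794, a site 672640 bp from any other peak had summit heights of 13 and 9. On chromosome 7 from 84638826 to 84639165, 650557 bp from the nearest peak, the heights were 11 and 24. A site on chromosome 2 from 87188672 to 87188828 had heights of 9 and 7, with 607663 bp around it free of other peaks on the nearer side. The fifth, on chromosome 8 from 7687172 to 7687398, was taller, with heights of 49 and 43 and summits 10 bp apart. Thus 4 of the 5 most remote sites had hypertrophic heights of 9 to 14, and 1 had a height of 49.

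Scores of solitary sites were lower than those of the other overlapping peaks, with medians near the middle of each whole list. The peak score, the authors' own value, follows the MACS layout as a fixed multiple of minus log10 p and starts at 50 in both lists. The hypertrophic score of the sites had a median of 113.98 with quartiles of 76.2 and 181.4, against 163.3 with quartiles of 93.4 and 349 for the other overlapping peaks. The quiescent score had a median of 129.9 with quartiles of 83.7 and 245.7, against 181.7 with quartiles of 97.3 and 420. In terms of rank within its own list, the median site stood at percentile 47.6 of hypertrophic scores and percentile 51.1 of quiescent scores. For the other overlapping peaks these percentiles were 62.3 and 62.9. A hypertrophic score of at least 200 was reached by 455 sites (21.2%, interval 19.6 to 23.0%) against 42.1% of the other overlapping peaks (interval 41.7 to 42.6%). For the quiescent score, 665 sites (31.0%, interval 29.1 to 33.0%) reached 200, against 46.5% of the others (interval 46.0 to 46.9%).

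**Figure D1:**
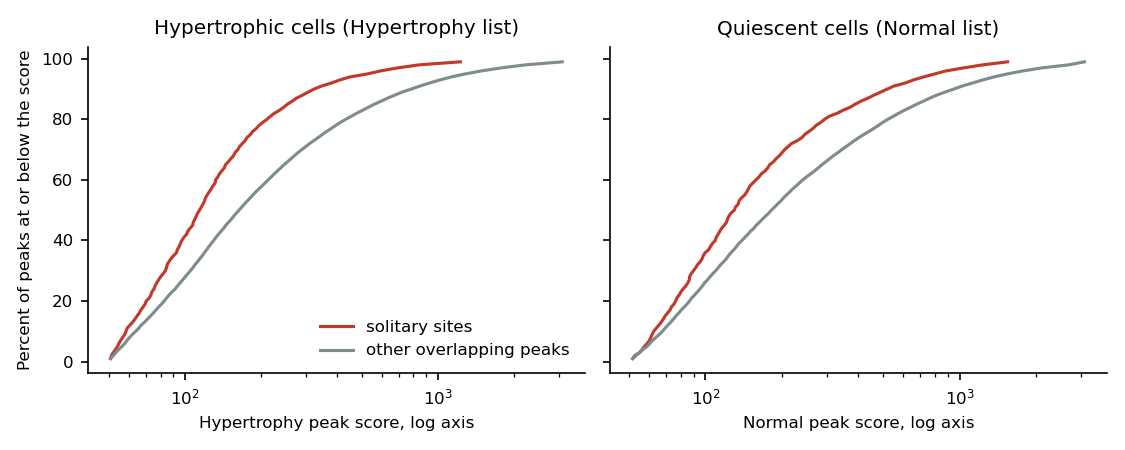
Cumulative percent of solitary sites (red) and of the other overlapping peaks (grey) at or below each peak score, on a log axis, in the hypertrophic (left) and quiescent (right) list. The red curve lies above and to the left in both lists, with medians of 113.98 against 163.3 and 129.9 against 181.7.

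Strong solitary sites did occur. At a hypertrophic score of 1600 or more there were 12 sites (0.560%), against 3.58% of the other overlapping peaks. Scores of 3100 or more, where many peaks share exactly 3100 and cannot be ranked, were held by 4 sites for hypertrophic and 6 for quiescent cells, 3 of them in both. The site on chromosome 9 from 59703537 to 59704794 scored 3216 in hypertrophic and 3100 in quiescent cells, with summit heights of 48 and 100. The site on chromosome 18 from 58999938 to 59001081 scored 3100 in both and had heights of 50 and 102. On chromosome 8 from 91766719 to 91767334 the score was again 3100 in both, the heights were 103 and 89, and the summits lay 1 bp apart. The first and second of these 3 had the taller quiescent summit, and the last had the taller hypertrophic one.

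Among the 10 sites of highest hypertrophic score, 6 were also among the 10 of highest quiescent score, and 8 had the taller summit in hypertrophic cells. Over all solitary sites that share was 57.3%, and a choice by hypertrophic score favours tall hypertrophic summits, so the 8 are not a finding about direction. On chromosome 3 from 37695893 to 37696600 the scores were 3100 and 2693, and the heights 56 and 40. On chromosome 17 from 39027347 to 39028095 the scores were 2485 and 2647, and the heights 78 and 69. On chromosome X from 135052470 to 135053215 they were 2382 and 2565, with heights of 63 and 46. These 3 sites kept a similar place in both lists. By contrast, the site on chromosome 8 from 28586560 to 28587637 scored 2766 in hypertrophic and 982 in quiescent cells, with heights of 142 and 103. The site on chromosome 17 from 3739523 to 3740643 scored 2639 and 1285, with heights of 57 and 28. In the other direction, a site on chromosome 1 from 249051489 to 249052941 scored 783 and 3100, with heights of 14 and 49. Sites on chromosome 4 from 79196201 to 79197037 (heights 30 and 66) and chromosome 2 from 245939151 to 245939857 (heights 33 and 69) also reached 3100 in quiescent cells only.

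The typical solitary site was small. The 3 sites nearest the median hypertrophic score were 149, 250 and 249 bp wide. On chromosome 4 from 140865101 to 140865249 the heights were 18 in hypertrophic and 13 in quiescent cells. On chromosome 1 from 240697958 to 240698207 they were 16 and 28. On chromosome 6 from 97589162 to 97589410 they were 90 and 74, so the same score went with very different pileups. Across the sites, score and height had a Spearman correlation of 0.58 for hypertrophic and 0.56 for quiescent peaks (2142 sites). Among the other overlapping peaks it was 0.64 and 0.62.

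Solitary sites were also narrower and lower. The median hypertrophic width was 257 bp (quartiles 178 and 382 bp), against 386 bp (270 and 597 bp) for the other overlapping peaks. The median quiescent width was 271 bp, against 401 bp. Widths under 200 bp were found at 667 sites (31.1%, interval 29.2 to 33.1%), against 9.07% of the others (interval 8.82 to 9.34%). The summit height, the deposited pileup at the highest base, had a median of 16 in both lists at solitary sites, against 22 in hypertrophic and 21 in quiescent cells elsewhere. A pileup grows with the amount of transcript, its methylated share and the number of cells that make it, and these cannot be told apart here.

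The lower height went along with the lower score, whereas a difference in width was still present at equal score. With scores from 100 to 150, the median height was 15 both for 535 solitary sites and for 8560 other overlapping peaks, while the median widths were 259 and 331 bp. From 200 to 300, the heights were 26 and 25 and the widths 334 and 442 bp. From a score of 400 the order of the widths was not constant. From 400 to 800 they were 620 bp for 108 sites and 605 bp for 5543 other peaks, from 800 to 1600 they were 837 bp for 35 sites and 743 bp for 2854 others, and from 1600 up they were 819.5 bp for 12 sites and 934.5 bp for 1662 others. Matching every site to other peaks of its score class gave a median width ratio of 0.83 and a median height ratio of 1.

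With isolation the median score fell gradually, with no marked step at 50000 bp. The median width fell more between the classes on either side of that distance than between the closer classes. When all overlapping peaks were ordered by the distance to the nearest peak of either list, the median hypertrophic score went from 180.8 (up to 1000 bp, 13917 peaks) through 169.3, 163.7, 146.8 and 129.9 (25000 to 50000 bp, 3200 peaks) to 116.4 among 1406 sites at 50000 to 100000 bp. Among the 736 sites beyond 100000 bp it was 108.8. The median width went from 418 bp in the closest class through 386, 381, 364 and 329 bp to 272 and 235.5 bp in the 2 solitary classes. Just inside the threshold, 494 sites with a nearest peak at 50000 to 60000 bp had a median hypertrophic score of 114.8 and a width of 276 bp. Just outside, 766 pairs at 40000 to 50000 bp, each peak overlapping only the other, had 119.9 and 311 bp. The site closest to the threshold, on chromosome 1 from 89480121 to 89480351, had 50010 bp to the nearest quiescent peak, with heights of 28 and 24. The nearest pair left out, on chromosome 2 from 53122967 to 53123456, had 49996 bp, with heights of 17 and 34.

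**Figure D2:**
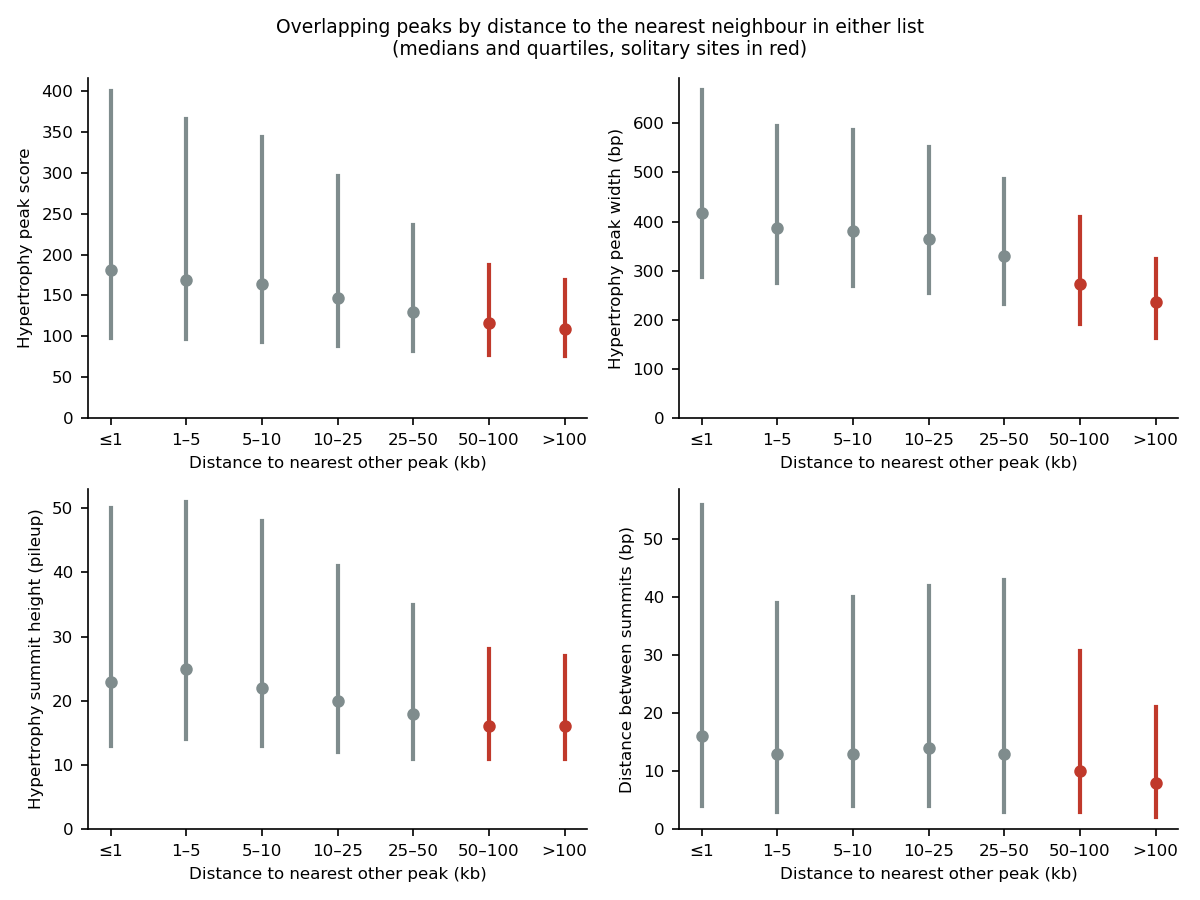
Overlapping peaks in 7 classes of distance to the nearest other peak of either list, in kb, with the median (point) and quartiles (line) of hypertrophic score, width in bp, summit height and distance between the 2 conditions' summits in bp. The 2 solitary classes are red; the median score goes from 180.8 in the closest class to 108.8 in the most remote, and the median width from 418 to 235.5 bp.

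Within the solitary sites the hypertrophic score differed little between classes of remoteness, and the quiescent score was lowest at the most remote sites. The median hypertrophic score was 114.8, 116.4, 119.3, 107.4 and 110.9 in 5 classes from 50000 bp to beyond 150000 bp, which shows no steady order. Median widths in the same classes were 276, 277.5, 257.5, 239 and 228 bp, and the narrowest class was the most remote. The median quiescent scores were 146.6, 127.04, 144.6, 123.2 and 112.3, lower in the last class than in the first but in no steady order.

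The 2 conditions placed their peaks at nearly the same base. The median distance between summits was 9 bp (quartiles 3 and 27 bp) at solitary sites, against 14 bp (4 and 44 bp) at the other overlapping peaks. The summits fell on the same base at 124 sites, within 10 bp at 1126 sites (52.6%, interval 50.5 to 54.7%) and within 100 bp at 1970 sites (92.0%, interval 90.7 to 93.0%). Of the other overlapping peaks, 43.9% had summits within 10 bp and 87.3% within 100 bp. Identical start and end in both lists occurred at 12 sites. The overlap made up a median of 83.6% of the joined region, against 82.7% elsewhere.

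Within classes of width the summit distances of sites and other peaks were closer to each other, though not in every class. Among peaks under 200 bp, the median summit distance was 5 bp at 667 solitary sites and 6 bp at 4216 other peaks. From 300 to 400 bp it was 17 and 16 bp, and from 400 to 600 bp it was 18 bp in both. From 600 to 1000 bp it was 17.5 bp at the sites and 16 bp elsewhere. The sites had the shorter distance from 200 to 300 bp, with 11 against 14 bp, and from 1000 bp up, with 9 bp at 61 sites against 12 bp at 4130 other peaks. Matched on width class, a comparison added after seeing the data, the median ratio of the sites' summit distance to that of other peaks was 0.83, against 0.64 without matching. Within classes of score, which leave the width difference in place, the sites kept shorter distances up to a score of 300, for example 7 against 14 bp from 80 to 100.

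A few solitary sites had summits far apart. Only 11 sites (0.514%) had more than 500 bp between summits, against 1.83% of the other overlapping peaks. The largest distance was 1386 bp, at a site 2039 bp wide with heights of 79 and 65 (chromosome 6 from 82402730 to 82404768). On chromosome 2 from 179496132 to 179496353, a hypertrophic peak of 222 bp lay within a quiescent peak of 1527 bp, and the summits, with heights of 6 and 11, were 1022 bp apart. On chromosome X from 99538055 to 99543821, peaks of 5767 bp in both conditions had heights of 132 and 135, with 1004 bp between the summits. The sites on chromosomes 6 and X are wide peaks of nearly equal extent in both conditions, while that on chromosome 2 is a wide quiescent peak over a narrow hypertrophic one.

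Wide and very tall sites were rare. A hypertrophic width over 2000 bp was found at 10 sites (0.467%), against 1.41% of the other overlapping peaks. A summit height of 150 or more in either list was found at 9 sites (0.420%), against 1.56%. Tall pileups did not always score high. On chromosome 4 from 152832204 to 152832946 the heights were 161 and 157 and the scores 54.1 and 89.3. On chromosome X from 63389164 to 63390272 the heights were 164 and 161, with scores of 75.9 and 154.7 and both summits on the same base. The largest height in either list is 164, so values near it may be limited from above. The 9 tall sites had hypertrophic scores from 54.1 to 849, and all 9 had the higher score in the quiescent list. The like share among other peaks of that height is not given here. The median score of the other overlapping peaks of any height was also higher in the quiescent list, at 181.7 against 163.3. Whether the count sets the tall sites apart from other peaks of that height was not tested.

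Summit heights at solitary sites were close between conditions, and the larger differences were mostly in the quiescent direction. The hypertrophic summit was taller at 1228 sites (57.3%), the quiescent at 754 (35.2%) and the heights were equal at 160 (7.47%). Among the other overlapping peaks these shares were 62.0%, 32.5% and 5.52%, so a taller hypertrophic summit was the more frequent case there too. The median log2 ratio of quiescent to hypertrophic height was -0.12, against -0.15 for all overlapping peaks, which was taken as the centre because the scaling of heights is not stated. A height was called different when its ratio lay at least 2-fold from that centre. It was at least 2-fold higher in quiescent cells at 162 sites (7.56%, interval 6.52 to 8.76%), against 6.07% of all overlapping peaks. It was at least 2-fold higher in hypertrophic cells at 29 sites (1.35%, interval 0.944 to 1.94%), against 3.00% of all overlapping peaks. In both directions together, 191 sites (8.92%) were called, near the 9.07% of all overlapping peaks. Of the called sites 84.8% were thus higher in quiescent cells, against 66.1% among the other overlapping peaks. Without centring, 132 sites were higher in quiescent and 68 in hypertrophic cells, so the quiescent share of calls was 66.0%, against 45.0% among the others.

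**Figure D3:**
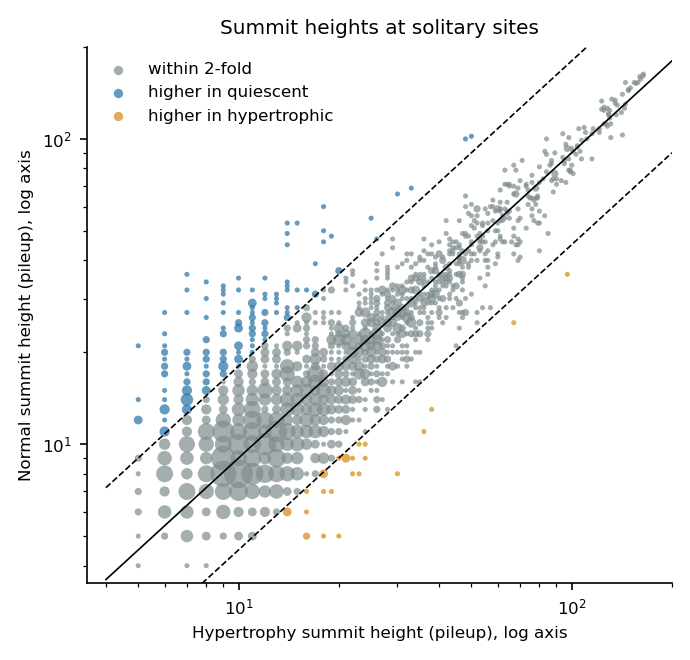
Summit height in quiescent against hypertrophic cells at the 2142 solitary sites, on log axes; point area grows with the number of sites at the same pair of heights. The solid line is the median ratio of all overlapping peaks and the dashed lines lie 2-fold from it; 162 sites lie on or above the upper and 29 on or below the lower dashed line.

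The lower share of hypertrophic calls was also seen among sites of like height. With a taller summit of 10 to 19, 1.38% of 939 sites were at least 2-fold higher in hypertrophic cells, against 3.34% of 14542 other overlapping peaks. From 20 to 39 the shares were 2.07% of 676 sites and 4.87% of 13708. From 40 to 79 they were 0.400% of 250 sites and 2.60% of 9027. From 80 up they were 1.04% of 96 sites and 0.594% of 6061, which is the opposite order. From 40 up the shares of solitary sites rest on very few calls, so neither order can be relied on there. For the quiescent direction, the shares from 20 to 39 were 12.7% and 10.5%. With the taller summit at 20 or more, 100 of 1022 sites (9.78%, interval 8.11 to 11.8%) were higher in quiescent cells, against 6.60% of all overlapping peaks of that height, and 16 (1.57%) were higher in hypertrophic cells, against 3.20%. Either call was made at 116 of these sites (11.4%), against 9.80% of all overlapping peaks of that height. Both lists share the IgG control from hypertrophic cells, and its part in the direction of the calls was not tested.

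**Figure D4:**
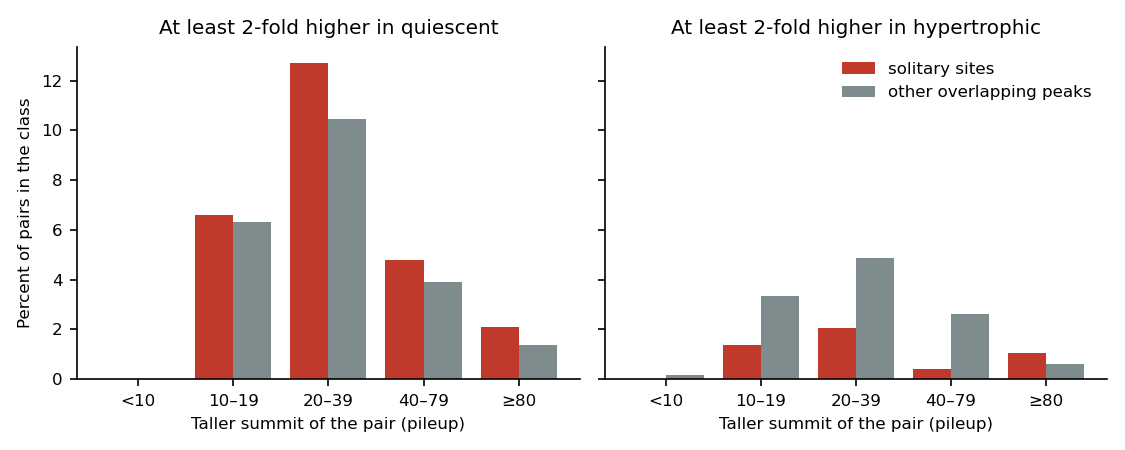
Percent of pairs whose summit height was at least 2-fold higher in quiescent (left) or hypertrophic (right) cells, by the taller height of the pair, for solitary sites (red) and other overlapping peaks (grey). Quiescent calls peak at 12.7% and 10.5% in the class of 20 to 39, and hypertrophic calls are fewer at solitary sites up to 79.

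The sites with the largest quiescent excess were faint in hypertrophic cells, which a choice by height ratio favours. On chromosome 3 from 29580940 to 29581285 the hypertrophic height was 7 and the quiescent 36, a log2 ratio of 2.36. On chromosome 16 from 67615742 to 67615956 the heights were 7 and 32, and on chromosome 7 from 79767659 to 79767948 they were 6 and 27. The summits of these 3 pairs were 47, 60 and 18 bp apart. On chromosome 3 from 150011878 to 150012400 the heights were 8 and 34, and on chromosome 6 from 29104771 to 29104996 they were 5 and 21. The hypertrophic scores of the 5 sites ran from 52.03 to 140.9 and the quiescent scores from 450.8 to 997.9.

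The opposite sites were fewer. On chromosome 7 from 99574979 to 99575331 the hypertrophic height was 20 and the quiescent 5, a log2 ratio of -2.00. On chromosome 15 from 47699073 to 47699995 the heights were 30 and 8, and on chromosome 2 from 192858311 to 192858656 they were 36 and 11. All 3 had summits within 38 bp of each other. On chromosome 1 from 110262773 to 110263058 the heights were 38 and 13, and on chromosome X from 104170990 to 104171310 they were 23 and 8. Over all calls, the 162 sites higher in quiescent cells had median heights of 9 in hypertrophic and 22 in quiescent cells. The 29 sites higher in hypertrophic cells had medians of 20 and 8. The calls were made by height ratio, so these contrasts describe the choice. Summits lay within 100 bp at 79.6% of the 162 and 96.6% of the 29, against 92.9% of the sites called in neither direction.

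More sites reached a score of 200 in quiescent cells alone than in hypertrophic cells alone. At 320 sites (14.9%, interval 13.5 to 16.5%) only the quiescent score reached 200, and at 110 sites (5.14%, interval 4.28 to 6.15%) only the hypertrophic one did. Among the other overlapping peaks these shares were 13.0% and 8.63%. Both scores reached 200 at 345 sites (16.1%) against 33.5% of the others, and both were below 100 at 519 sites (24.2%) against 14.9%. Whether the 2 score scales are comparable was not tested. Across the 2142 sites the scores of the 2 lists had a Spearman correlation of 0.58, the heights 0.78 and the widths 0.84. The corresponding values among the other overlapping peaks were 0.68, 0.86 and 0.83. These describe sites that share libraries and a common IgG control.

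Solitary sites were found on all 21 chromosomes of the lists, with the largest share on chromosome X. There, 163 of 1315 overlapping peaks (12.4%, interval 10.7 to 14.3%) were solitary sites, which is 2.81 times the share over all chromosomes. Chromosome 15 followed with 104 sites (6.87%, interval 5.71 to 8.26%) and chromosome 2 with 251 sites (6.77%, interval 6.01 to 7.63%), the largest number on 1 chromosome. The intervals of chromosomes 15 and 2 overlap. The smallest shares were on chromosome 12, with 14 sites (0.886%, interval 0.528 to 1.48%), chromosome 20, with 28 sites (2.01%, interval 1.39 to 2.89%), and chromosome 10, with 71 sites (2.67%, interval 2.12 to 3.35%).

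The share followed the density of peaks. Chromosome X had 8.19 overlapping peaks per Mb of spanned sequence and chromosome 12 had 33.8. Over the 21 chromosomes, the share of solitary sites and the density of overlapping peaks had a Spearman correlation of -0.98, and -0.97 without chromosome X. The number of overlapping peaks enters both axes, and a sparse chromosome leaves more room between peaks by construction. In absolute terms the density of solitary sites varied less, from 0.30 per Mb on chromosome 12 to 1.02 per Mb on chromosome X. It too was lower where peaks were dense, with a Spearman correlation of -0.71 with overlapping peaks per Mb over the 21 chromosomes.

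**Figure D5:**
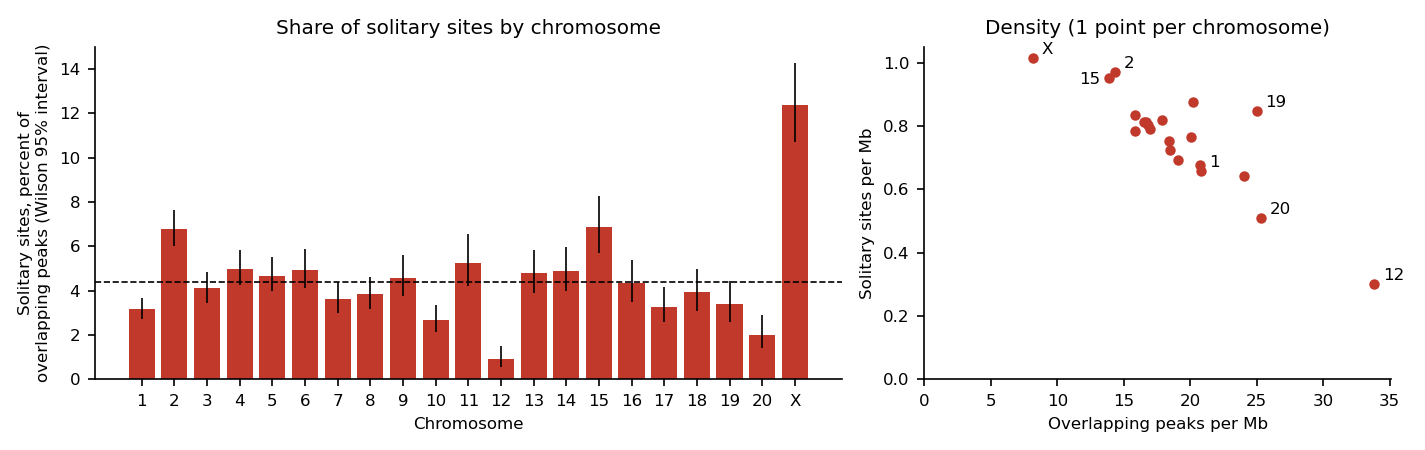
Left: solitary sites as a percent of overlapping peaks on each chromosome, with Wilson 95% intervals; the dashed line is the share of 4.41% over all chromosomes. Right: solitary sites against overlapping peaks per Mb, 1 point per chromosome, with X at 8.19 and chromosome 12 at 33.8 overlapping peaks per Mb.

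The sites of chromosome X resembled those of the autosomes in size. Their median hypertrophic score was 112.5, against 114.05 for 1979 autosomal sites, their median width 252 against 258 bp and their median hypertrophic height 16 in both. At least 2-fold higher quiescent summits were found at 8 of the 163 sites (4.91%) and higher hypertrophic ones at 6 (3.68%). Among the 1152 other overlapping peaks of chromosome X the split was also near even, with 42 (3.65%) and 31 (2.69%). On the autosomes, 154 sites (7.78%) were higher in quiescent and 23 (1.16%) in hypertrophic cells, against 6.06% and 3.08% of the other overlapping peaks there. The counts on chromosome X are small.

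Along the chromosomes the sites were scattered, with some runs. Neighbouring solitary sites lay a median of 781258 bp apart, and 430 of 2121 neighbouring pairs (20.3%) had no other peak of either list between them. The 2142 sites fell into 1417 windows of 1 Mb, of which 878 held 1 site and 5 held 5. The only window with 6 sites was on chromosome 13 from 7000001 to 8000000, where the hypertrophic and quiescent lists held 8 peaks each. A close pair of sites lay on chromosome 19, from 2036063 to 2036236 and from 2086272 to 2086404, with 50035 bp between the hypertrophic peaks. Their heights were 29 and 28 at the first and 12 and 13 at the second, and their summits differed by 2 and 1 bp between conditions.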

How the data were processed

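MeRIP-seq peaks of neonatal rat cardiomyocytes were taken as deposited, 1 peak list and 1 summit list per condition. The authors' tools were CASAVA 1.8, TopHat and MACS 1.4 with build rn4, per the submitters' processing notes. Nothing in the labels says whether replicates were pooled. Each peak carries a deposited score, the authors' own value. The deposited summit signal is a pileup in whole numbers with no stated scaling. From these, distances between neighbouring peaks (edge to edge), overlaps (at least 1 bp), the partner of largest overlap, and log2 height ratios centred on -0.15, the median of all overlapping peaks, were computed with Python 3.11.15, pandas 2.3.3, numpy 2.4.6 and scipy 1.17.1. The rule was tested on simulated lists and found 600 of 600 planted sites and no others. Named sites are the 10 highest scores of each list, the 5 highest and lowest height ratios with a taller summit of at least 20, the 5 most remote, the 5 widest, the 5 with the largest summit distance, the 3 nearest the median score and the 3 on either side of the threshold, of which the text prints a part. The 2 tall sites with low scores and the window on chromosome 13 were named after their values were seen. The sites and rules were chosen with earlier results of these data known. Peak positions are in rn4 while the gene and sequence tables at hand are in GRCr8, so no gene or sequence is given. Of the columns of values, 0 were left out.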

Additional observations from a re-analysis of the deposited data

How the results depend on the processing

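The number of sites depended on the distance, with 5342 sites at 25000 bp and 736 at 100000 bp. At these distances the sites' median score was 0.727 and 0.675 times that of the other overlapping peaks (0.698 at 50000 bp), the width 0.757 and 0.616 times (0.666), and the share on chromosome X 1.90 and 4.02 times that of all chromosomes. The summit distance was 0.857 times that of the others at 25000 bp (0.643 at 50000 bp), and 7.07% of sites were called by height at 100000 bp. With only scores of at least 100 in both lists there were 2401 sites, which are in part other sites. Of the 2142 sites, 884 had a hypertrophic score below 100 and dropped out, and weaker neighbours no longer counted. In this setting the width ratio was 0.774, the summit distance ratio 0.769 and the ratio for chromosome X 2.11. Starting from the quiescent list keeps the same sites but measures their quiescent values against the other overlapping quiescent peaks. The quiescent score ratio was 0.733 and the quiescent height ratio 0.800, where the hypertrophic ratios were 0.698 and 0.727. Within score classes the width ratio was 0.826 and the height ratio 1, and within width classes, chosen after seeing the data, the summit distance ratio was 0.833. With a taller summit of at least 20, also chosen afterwards, 11.4% of sites were called, against 9.80% of all overlapping peaks of that height. At all heights the share called was 8.92% against 9.07%, so its order relative to all overlapping peaks changed. In no alternative did a ratio of score, width, height, summit distance or share on chromosome X change to the other side of 1. The height ratio was 1 within score classes. Of 62 values, 43 stayed within the interval of the main value or, for the number of sites, within 1.5 times it. For score, width, height and summit distance this was a binomial 95% interval of the sites' median, divided by the median of the other peaks. It leaves out the spread of those other peaks. Those 43 include the number of sites started from the quiescent list, which the rule fixes at 2142. It is equally fixed when the comparison is limited to pairs in which each peak overlaps only the other. The sites are the same there, and the share of them called by height was also the same, 8.92%. No paired analysis was possible because each condition is 1 list without replicate columns, and for the same reason no replicate could be left out. Scores near 50 and pileups under 10 limit what can be said of the weakest sites, where a small difference in pileup changes a ratio.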

Other observations

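Isolated peaks without a partner were more numerous in quiescent cells. Of 5118 isolated quiescent peaks, 2935 overlapped a hypertrophic peak (57.3%, Wilson 95% interval 56.0 to 58.7%), against 72.1% of the quiescent peaks with a neighbour (interval 71.7 to 72.4%). In the hypertrophic list the shares were 73.7% of isolated peaks (interval 72.5 to 74.9%) and 74.2% of peaks with a neighbour (interval 73.8 to 74.5%). The quiescent gap was present in each of 10 classes of score, for example 39.97% against 49.2% from 60 to 80 and 78.3% against 87.7% from 200 to 300. In the hypertrophic list the order within score classes up to 400 was the other way, with 58.2% against 50.5% from 60 to 80 and 98.2% against 95.1% from 200 to 300. The 2183 isolated quiescent peaks without a hypertrophic partner had a median height of 8, and 155 of them (7.10%) scored at least 200. Of the 1289 isolated hypertrophic peaks without a quiescent partner, 9 (0.698%) did.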
